A study of Mus musculus with 12 samples.

Results

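The genes described here are the 9 members of a set named for the receptor of leukaemia inhibitory factor (LIF) and the response of the transcription factor STAT3: Lifr, Il6st, Stat3, Socs3, Pim1, Pim3, Bcl3, Junb and Fos. They were chosen by name, with earlier results of these data known. All 9 were found among the 21631 protein-coding genes of chromosomes 1 to 19 and X in the RefSeq annotation of GRCm38.p6 (primary assembly mm10). Each gene was read with 10 kb on each side, called its window. The windows touched 45 of the 54825 bins of 10 kb listed for embryonic stem cells (ESCs) at either time.

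Chromatin immunoprecipitation sequencing measured H3K27ac, the acetylated form of a lysine in the tail of histone H3 that marks active promoters and enhancers, and the binding of the pluripotency factor KLF4, a DNA-binding protein with zinc fingers. In mouse V6.5 ESCs, H3K27ac was measured in 2 samples 24 h after doxycycline was added to induce Cas9 and in 2 samples at 0 h. Cells of both times came from clones selected after lentiviral delivery of doxycycline-inducible TRE3G-Cas9 with guides to Klf4, or to Klf4, Klf2 and Klf5. The labels call the 24 h samples both TKO and KLF4 KO, so which of these genes were cut is not settled, and they call the uninduced 0 h samples WT. Knockout was checked by western blot in the clones, per the labels. In induced pluripotent stem cells (iPSCs), KLF4 and H3K27ac were measured in 2 samples each. The inputs were 2 ESC libraries and 1 library for each iPSC mark. All cells were grown in 2i, a pair of inhibitors of MEK and GSK3, and the protocol for the ESCs adds feeder cells, serum and LIF at 1000 U/ml. LIF is given for the medium of the ESCs in general, so the 2 times do not compare cells with and without it.

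Each group was deposited as 1 list with no values per sample, so no replicate error and no test across samples could be had, and read depth was unknown. An H3K27ac value was given for 25611 bins at 24 h (median 4.05) and for 26812 bins at 0 h (median 4.65). Over the 22739 bins valued both times, the log2 ratio of 24 h to 0 h had a median of -0.23, and relative values below are set against that median. In ESCs all 5 markers of pluripotent cells looked up (Pou5f1, Sox2, Nanog, Esrrb and Zfp42) had a value at both times, with highest values in the window of 6.27 to 24.2 at 24 h and 8.33 to 29.7 at 0 h. Their relative values were all below 0, from -0.21 to -0.06. Of 8 fibroblast genes, which could mark feeder cells, Col1a2, Thy1 and Postn had no value. The other 5 had one at each time, with highest values in the window of 2.59 to 10.7 at 24 h and 2.98 to 12.1 at 0 h. The relative values of these 5 were -0.18 (Col1a1), -0.12 (Fn1), 0.04 (Loxl1), 0.35 (Col3a1) and 1.06 (Vim). The part of either list in the values below was not tested.

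LIF binds its receptor chain LIFR, which pairs with IL6ST, the signalling chain shared by the receptors of the interleukin 6 family. JAK kinases bound to these chains then phosphorylate STAT3, which dimerises, enters the nucleus and activates genes that keep mouse ESCs self-renewing in the naive state. Among the genes it activates are its own feedback inhibitor Socs3, the survival kinases Pim1 and Pim3, the NF-kappaB cofactor Bcl3 and the AP-1 subunits Junb and Fos. In mouse ESCs Klf4 is itself a target of STAT3 and one route by which LIF acts.

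Promoter sequences were taken from RefSeq (GRCm38.p6) for all 9 genes. Shown here are the 250 bases upstream of the first listed start site of Stat3 itself, of Socs3, the feedback inhibitor, of Pim1, of Fos, the 1 gene whose H3K27ac was past the fold limit used below, and of Il6st, the 1 gene without a KLF4 peak. Each runs 5′ to 3′ towards the start site. Capitals mark GGGTG, the core of the KLF recognition sequence, GGGCGG, the GC box bound by SP and KLF proteins, and TTCNNNGAA, the STAT recognition sequence, each on either strand. They also mark the longer KLF sequence GGGNGTGG, which is absent from these 5 stretches.
Stat3, chr11:100939541-100939790, minus strand: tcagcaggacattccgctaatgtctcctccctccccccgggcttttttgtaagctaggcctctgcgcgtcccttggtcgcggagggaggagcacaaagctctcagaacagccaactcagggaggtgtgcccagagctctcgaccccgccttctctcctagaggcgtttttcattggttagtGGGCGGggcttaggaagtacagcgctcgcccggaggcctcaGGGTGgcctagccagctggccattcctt
Socs3, chr11:117969367-117969616, minus strand: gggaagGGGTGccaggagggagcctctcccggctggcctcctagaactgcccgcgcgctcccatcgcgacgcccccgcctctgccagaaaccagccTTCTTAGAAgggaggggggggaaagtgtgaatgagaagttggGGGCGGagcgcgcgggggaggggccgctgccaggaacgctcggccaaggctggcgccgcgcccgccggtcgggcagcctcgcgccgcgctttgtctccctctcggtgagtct
Pim1, chr17:29490535-29490784, plus strand: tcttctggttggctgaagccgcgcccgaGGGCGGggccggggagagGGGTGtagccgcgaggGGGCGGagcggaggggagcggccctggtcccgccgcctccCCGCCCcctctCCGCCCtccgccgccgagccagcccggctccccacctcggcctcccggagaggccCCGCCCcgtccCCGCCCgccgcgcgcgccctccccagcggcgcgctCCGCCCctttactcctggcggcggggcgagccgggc
Fos, chr12:85473640-85473889, plus strand: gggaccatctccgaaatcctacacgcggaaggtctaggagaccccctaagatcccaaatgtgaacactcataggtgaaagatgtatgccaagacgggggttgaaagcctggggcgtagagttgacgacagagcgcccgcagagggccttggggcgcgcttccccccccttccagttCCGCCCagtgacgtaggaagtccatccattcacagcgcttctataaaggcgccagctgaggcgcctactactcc
Il6st, chr13:112463820-112464069, plus strand: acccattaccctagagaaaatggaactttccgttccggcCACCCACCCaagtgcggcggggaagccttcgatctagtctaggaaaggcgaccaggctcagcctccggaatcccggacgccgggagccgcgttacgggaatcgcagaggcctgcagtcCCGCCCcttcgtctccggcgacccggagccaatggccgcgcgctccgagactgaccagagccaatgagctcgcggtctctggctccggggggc

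The stretch of Socs3 was the only one of the 11 member promoters listed, over 9 genes, with a TTCNNNGAA match. That match, TTCTTAGAA, lies 154 to 146 bases upstream of the listed start site. The annotated span of Socs3 reaches 117970336 at its upstream end, so the whole stretch shown lies inside that span. Of 21045 promoters of protein-coding genes, 6.64% held such a match in the same 250 bases. Pim1 had 7 GC boxes, Pim3 and Bcl3 had 3 each, Lifr had 2, and Il6st, Stat3, Socs3 and Fos had 1 each, while Junb had none. The second listed promoters of Lifr and Pim1 held no GC box. A GC box was in 43.1% of all promoters and GGGTG in 54.4%. Of the member promoters, only the second of Pim1 and that of Fos lacked GGGTG. GGGNGTGG, in 17.8% of all promoters, was found at the second listed start site of Pim1 alone, 14 to 7 bases upstream, as GGGAGTGG. The first promoter of Fos held neither GGGTG nor GGGNGTGG on either strand. A KLF4 peak covered all 250 bases shown for Pim1, 200 for Stat3, 196 for Socs3 and 195 for Fos, and none for Il6st. These matches describe letters in a window and do not show a bound site.

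In iPSCs, KLF4 was found around 8 of the 9 genes and H3K27ac around all 9. The windows held 33 KLF4 peaks and 54 H3K27ac peaks. At least 1 KLF4 peak was in the window of 53.2% of all protein-coding genes and of 74.7% of those with an ESC H3K27ac value at both times. At least 4 KLF4 peaks were in the windows of 5 members, Bcl3, Lifr, Socs3, Pim3 and Fos, against 6.18% of all protein-coding genes and 10.9% of those with an ESC value. The members' windows had a median of 25327 bp against 37329 bp for all protein-coding genes, but those of Lifr (126880 bp), Stat3 (72789 bp) and Il6st (62791 bp) were longer than the median of all genes. An H3K27ac peak was in the window of 60.4% of all protein-coding genes. Of the 33 KLF4 peaks, 27 overlapped an H3K27ac peak, or 81.8% (64.5 to 93.0, exact binomial interval at 95%, for counting error only), against 48.7% of all 21563 KLF4 peaks. At least 1 such acetylated KLF4 peak was found at 8 members and at 33.4% of all protein-coding genes. All 9 members had an ESC value at both times. The 48.7% covers peaks near and far from genes, and the 60.4% and 33.4% cover genes with and without an ESC value. Whether the members differ from other genes with an ESC value in these shares was not tested.

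KLF4 sat on the promoter itself at 6 of the 9 members, namely Stat3, Socs3, Pim1, Pim3, Bcl3 and Fos, counting peaks that overlap the 250 bases before and 50 bases after a listed start site. The same was true of 23.3% of the 17274 protein-coding genes with a listed promoter, counted with or without an ESC value. The 3 others differed among themselves. Il6st had no KLF4 peak in its window, and Junb had its peaks 1431 and 2277 bp downstream of its start site. Lifr had none nearer than 3221 bp to a listed start site. Another Lifr KLF4 peak overlapped the upstream end of its annotated span, where no start site is listed. It lay 39040 bp upstream of the first listed start site. The annotation used gives gene spans and start sites but no exons, so exon and intron positions are not stated. The maps of each window show these arrangements.

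**Figure D1:**
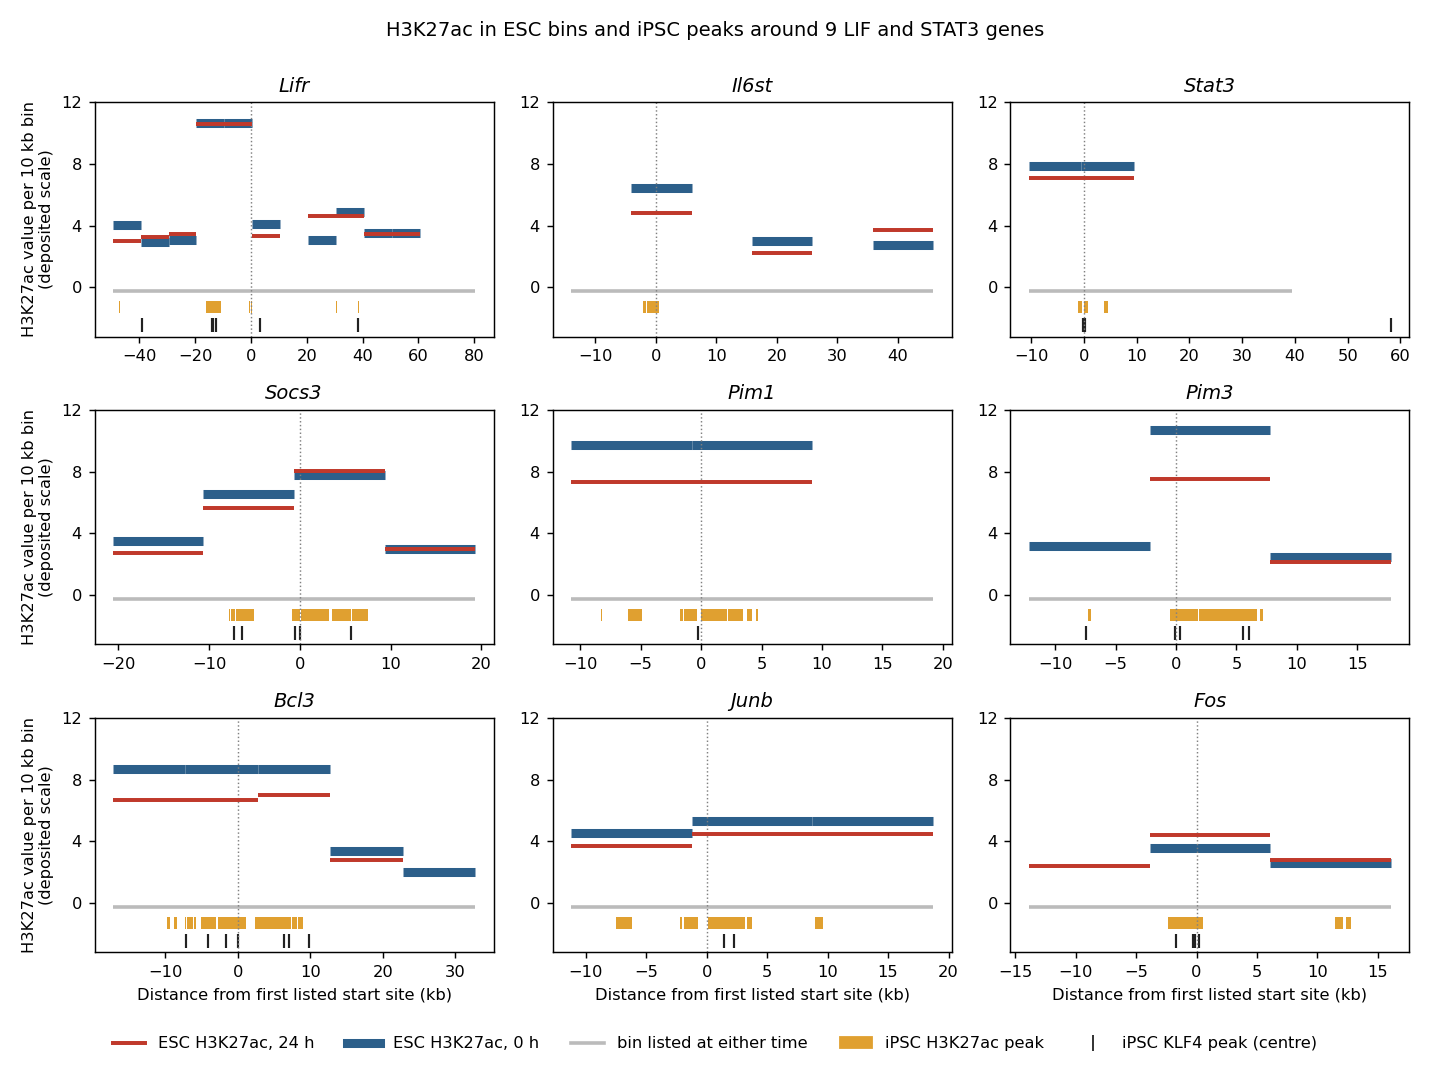
Each panel covers the window of 1 gene, with distance from its first listed start site in kb on the horizontal axis, positive in the direction of transcription. Red and blue bars are the deposited H3K27ac values of ESC bins at 24 h and at 0 h, grey bars are bins listed at either time, orange blocks are iPSC H3K27ac peaks and black ticks are centres of iPSC KLF4 peaks; Lifr has its highest bins, at 10.6 at both times, over a cluster of KLF4 peaks upstream of the start site, and the start-site bin of Fos is higher at 24 h (4.43) than at 0 h (3.56).

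The ESC comparison asked how H3K27ac around these genes differed 24 h after induction of the KLF knockout. The members lay on both sides of the median bin. Relative log2 values, 24 h over 0 h, were above 0 at Fos (0.44), Lifr (0.24), Socs3 (0.10), Il6st (0.09) and Stat3 (0.08), and below 0 at Pim1 (-0.19), Pim3 (-0.13), Bcl3 (-0.12) and Junb (-0.04, but 0.03 with scaling to summed values). The median over the 9 genes was 0.08, beside 0.02 over the 11243 protein-coding genes with a value, whose SD was 0.27, and it turned below 0 with 25 kb flanks, with the highest bin of each gene or without scaling. A fold limit of 0.32 on the log2 scale was used to call a gene higher or lower. Only Fos was past it as higher, as were 9.45% of all genes with a value, and no member was past it as lower, while 8.07% of all genes were. A count of 1 higher and 0 lower of 9 is near these background shares. With values as deposited and no scaling, Fos was no longer past the limit (0.21), where 2.54% of all genes were past it as higher. Without scaling Pim1 (-0.42), Pim3 (-0.36) and Bcl3 (-0.34) were past it as lower, as were 29.5% of all genes, so 3 of 9 is near the background share. Stat3 (-0.15), Socs3 (-0.13) and Il6st (-0.14) were then below 0, and Lifr was at 0.0092.

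**Figure D2:**
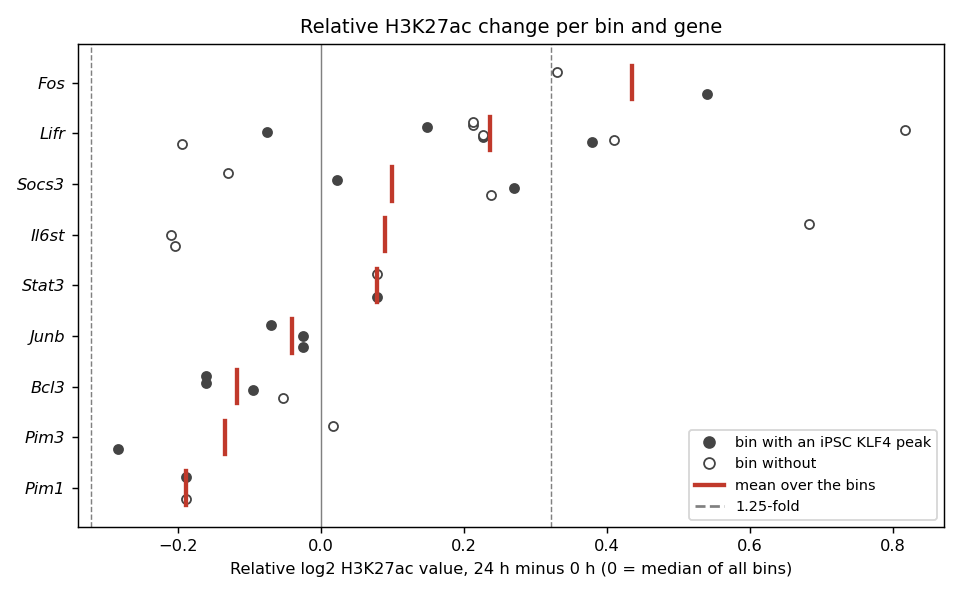
Points are single 10 kb bins with a value at both times, filled where the bin holds an iPSC KLF4 peak, and red bars are the mean over a gene's bins, on a log2 scale relative to the median of all bins. Fos is the 1 gene with its mean (0.44) beyond the dashed line at 0.32, and the bins of Lifr, Il6st, Socs3 and Pim3 lie on either side of 0.

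Lifr encodes the LIF-binding chain of the receptor (chromosome 15, 7090610 to 7197489). Of its 13 listed bins, 10 had a value at each time. The highest was 10.6 at 24 h and 10.6 at 0 h, shared by the pair of bins from 7110001 to 7130000. These lay above 98.9% of all valued bins at 24 h and above 96.0% at 0 h, and relative to all bins they were at 0.23. This domain holds 3 of the 6 KLF4 peaks of Lifr, 14021, 13685 and 12687 bp upstream of the first listed start site and inside the annotated span. All 3 lie within 1 iPSC H3K27ac peak of 5449 bp, the widest of the 54. The other bins of Lifr had lower values, between 3.02 and 4.64 at 24 h and between 2.96 and 4.90 at 0 h. Among them the bin from 7150001 had 4.64 at 24 h and 3.08 at 0 h, a relative value of 0.82, the highest of any member bin. It shared its 24 h value, but not its 0 h value, with the next bin, from 7160001. That neighbour had 4.90 at 0 h and a relative value of 0.15, so 0.82 does not show a rise local to 1 bin. The bin from 7080001 had 3.02 at 24 h and 4.05 at 0 h (-0.20). The SD over the 10 bins was 0.27, larger than the mean of 0.24. Of the 10 bins with a value at 0 h, 6 held no iPSC H3K27ac peak.

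Il6st encodes the shared signalling chain (chromosome 13, 112464070 to 112506860). The bin with its start site had 4.79 at 24 h and 6.46 at 0 h, and a bin within the gene from 112480001 had 2.24 at 24 h and 3.03 at 0 h. The last bin of the gene, from 112500001, had 3.74 at 24 h and 2.73 at 0 h. The log2 ratio of 24 h to 0 h was thus below the median of all bins at the start-site bin (-0.20). It was above that median at the last bin (0.68). The mean relative value of 0.09 had an SD of 0.51 over 3 bins. It turned to -0.18 with flanks of 25 kb and to -0.20 with the highest bin alone. An iPSC H3K27ac peak of 2026 bp covered the start site, with no KLF4 peak within 10 kb of the gene.

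Stat3 encodes the transcription factor (chromosome 11, 100886806 to 100939594). Its start-site bin and the next bin upstream shared 1 value, 7.09 at 24 h and 7.86 at 0 h, at a relative value of 0.08. Because they share it, they give no spread. The 3 listed bins further into the gene had no value at either time. KLF4 peaks lay 88 bp upstream and 262 bp downstream of the start site, and iPSC H3K27ac peaks of 774 and 824 bp flanked the upstream one without covering it. The third KLF4 peak lay 58282 bp downstream, beyond the end of the gene and inside the span of Stat5a.

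Socs3 encodes the inhibitor that shuts off the receptor-bound kinases (chromosome 11, 117966079 to 117970336). Its start-site bin had 8.04 at 24 h and 7.80 at 0 h, a relative value of 0.27. The next bin upstream had 5.68 at 24 h and 6.55 at 0 h (0.02). The outer downstream bin had 3.01 at 24 h and 2.99 at 0 h (0.24). The outer upstream bin had 2.75 at 24 h and 3.53 at 0 h (-0.13) and also overlaps Pgs1. The SD over the 4 bins was 0.19, against a mean of 0.10. All 5 KLF4 peaks overlapped an H3K27ac peak. The peak nearest the start site had its centre 3 bp from it and covered the STAT match shown above. The others lay 566, 6388 and 7273 bp upstream and 5673 bp downstream. The peaks at 3 and 566 bp lie inside the annotated span, which begins upstream of the listed start site.

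Pim1 and Pim3 encode serine/threonine kinases that promote survival. At Pim1 (chromosome 17, 29490785 to 29496111) the start-site bin and the bin upstream shared the value 7.32 at 24 h and 9.76 at 0 h, a relative value of -0.19, and the third listed bin had none. It had 1 KLF4 peak, of 671 bp, centred 240 bp upstream of the start site, and 8 H3K27ac peaks. At Pim3 (chromosome 15, 88862194 to 88865726) the start-site bin had 7.51 at 24 h and 10.7 at 0 h. Its relative value of -0.28 was the lowest of the 32 member bins valued at both times. The bin downstream had 2.14 at 24 h and 2.48 at 0 h (0.02), which brought the mean of Pim3 to -0.13. The bin upstream was listed at 24 h without a value and had 3.16 at 0 h. Of the 5 KLF4 peaks of Pim3, 2 lay 49 bp upstream and 320 bp downstream of the start site and 2 lay 5535 and 6036 bp downstream, all 4 within H3K27ac peaks. The remaining one lay 7421 bp upstream and overlapped none. Part of the Pim3 window is shared with the annotated gene Gm33049, whose span holds the 3 KLF4 peaks at 7421 bp and 49 bp upstream and 320 bp downstream.

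Bcl3 encodes a cofactor of NF-kappaB proteins (chromosome 7, 19808462 to 19822824). It had the most peaks of the 9 genes, 7 for KLF4 and 12 for H3K27ac. The bin with its start site had 6.66 at 24 h and 8.71 at 0 h, and the bin over the gene body had 6.97 at 24 h and 8.71 at 0 h. All 4 bins valued at both times were below 0, between -0.16 and -0.05, with an SD of 0.05. Another bin, at the far end of the window and also overlapping Cblc, had 2.00 at 0 h and no value at 24 h. The lowest value of any bin in the list was 1.24 at 0 h. Of the KLF4 peaks, 6 overlapped an H3K27ac peak, with centres 7001 and 6331 bp downstream and 42, 1588, 4110 and 7150 bp upstream of the start site.

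Junb and Fos encode subunits of AP-1 that are induced within minutes of many signals. At Junb (chromosome 8, 84976909 to 84978748) the start-site bin shared with its downstream neighbour the value 4.46 at 24 h and 5.31 at 0 h, and the upstream bin had 3.69 at 24 h and 4.54 at 0 h. The relative values of these bins, -0.03 and -0.07, were close to the median bin. The window of Junb also overlaps Rnaseh2a and Prdx2, and its upstream bin reaches into Hook2, so its bins are not those of Junb alone. Both KLF4 peaks of Junb, of 785 and 106 bp, lay within 1 H3K27ac peak of 3075 bp that begins 90 bp downstream of the start site.

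At Fos (chromosome 12, 85473890 to 85477274) both bins valued at the 2 times were higher at 24 h. The start-site bin had 4.43 at 24 h and 3.56 at 0 h, a relative value of 0.54. The bin downstream had 2.80 at 24 h and 2.61 at 0 h (0.33). The bin upstream had 2.37 at 24 h and was listed at 0 h without a value. The Fos mean of 0.44 lay at percentile 95.3 of all genes with a value and rested on 2 bins with an SD of 0.15. With flanks of 25 kb it was 0.31, under the limit. The values of Fos were the lowest start-site values of the 9 genes at both times. Its 4 KLF4 peaks were clustered at the start site, 1677, 312 and 97 bp upstream and 187 bp downstream, all within 1 H3K27ac peak of 2864 bp.

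By the value of the start-site bin at 24 h the order was Lifr (10.6), Socs3 (8.04), Pim3 (7.51), Pim1 (7.32), Stat3 (7.09), Bcl3 (6.66), Il6st (4.79), Junb (4.46) and Fos (4.43). At 0 h it was Pim3 (10.7), Lifr (10.6), Pim1 (9.76), Bcl3 (8.71), Stat3 (7.86), Socs3 (7.80), Il6st (6.46), Junb (5.31) and Fos (3.56). With 1 list per time, whether neighbours in these orders differ beyond the spread between samples cannot be told. Il6st, Junb and Fos had the lowest 3 values at 24 h and also at 0 h. At Lifr, Pim1, Stat3, Bcl3 and Junb the start-site bin shares its value with a neighbouring bin at both times. Those values are thus not of the start-site bin alone.

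Among the 32 member bins valued at both times, the 16 with an iPSC KLF4 peak had a median relative value of -0.03, and 9 of them were below 0. The 16 without KLF4 had a median of 0.15, and 6 were below 0. Over all bins the medians were -0.08 in 8857 bins with KLF4, of which 63.4% were below 0, and 0.06 in 13882 bins without, of which 41.5% were. The member bins thus stood in the same order as all bins, but the bin with KLF4 at the start site of Fos (0.54) was the third highest of the 32. Neighbouring bins often share a value, so these are not independent points. Over the 45 bins, 1 had a value at 24 h only (at Fos), as did 2872 of all 54825 listed bins. A value at 0 h only was found in 2 of the 45 (at Pim3 and Bcl3) and in 4073 of the 54825.

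Each bin also carried an unlabelled whole number in the ESC lists, called the bin score here, whose meaning the lists do not state. Its sum around the 9 genes was 294 at 24 h against 341 at 0 h, so the 24 h share was 46.3% (42.4 to 50.3, exact binomial interval at 95% for counting error only), beside 47.5% over all bins. The highest share was at Fos, with 20 at 24 h and 18 at 0 h (52.6%), and the lowest at Il6st, with 27 at 24 h and 35 at 0 h (43.5%). Lifr had the largest sums, 88 at 24 h and 107 at 0 h. Its bin over the KLF4 cluster, from 7110001, had 21 at 24 h and 18 at 0 h, while the summed score of its window was lower at 24 h. Stat3 had 8 at each time, the smallest sums of the 9. The intervals treat the score as a count of independent events, which no source states. Under that assumption the intervals of all 9 genes contained the share of all bins. No member's ratio was past the fold limit relative to all bins, while 23.0% of the 12583 genes with a score at both times were past it as higher and 21.5% as lower. These shares were not matched for the size of the sum. The median bin score was 2 at each time, and a window with a small sum passes the limit on a difference of few units. Without flanks Fos was past it as higher and Junb as lower, and Fos was also past it with only bins valued at both times.

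**Figure D3:**
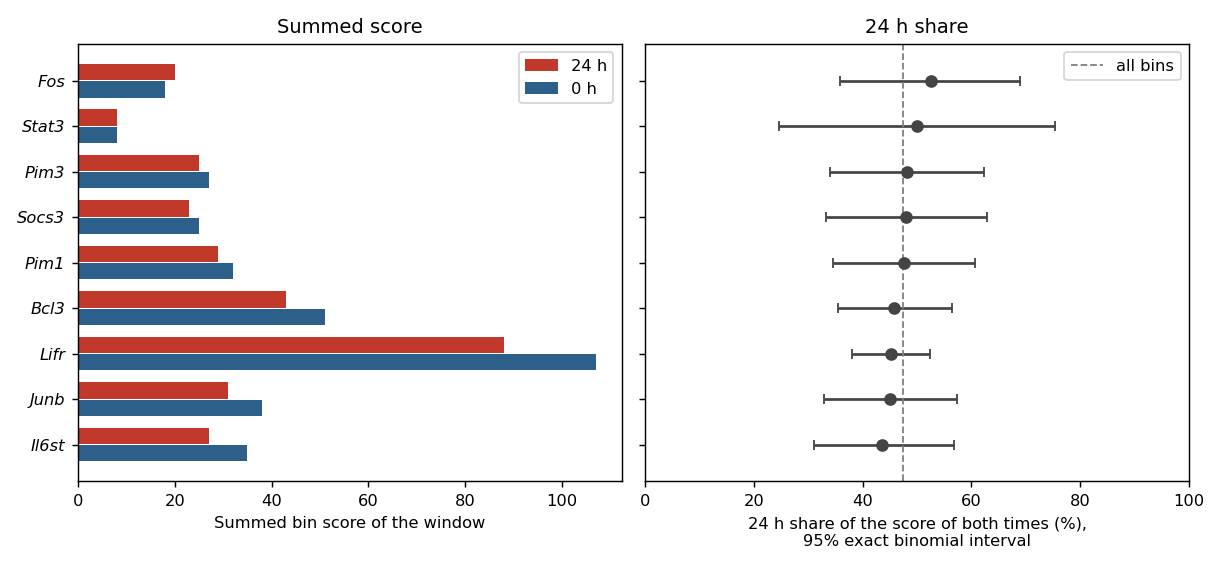
The left panel gives the summed bin score of each window at 24 h (red) and 0 h (blue), and the right panel the 24 h share of both in percent. The 95% exact binomial intervals treat the score as a count of independent events, which no source states. Every interval crosses the dashed line at 47.5%, the share over all bins.

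Of 49 other genes of the pathway, 35 had a relative value, with a median of -0.01 and 19 below 0. Past the fold limit were 3 as higher and 2 as lower, beside 9.45% and 8.07% of all genes with a value. Without scaling, an alternative chosen after seeing the data, 0 of the 35 were past it as higher and 11 as lower. Of all genes with a value, 2.54% were then past it as higher and 29.5% as lower, so 11 of 35 is near the background share. The higher ones were Pias1, an inhibitor of STAT proteins (0.52, SD 0.50 over 4 bins), Klf5, a target of STAT3 in mouse ESCs and named among the guide targets (0.43, SD 0.32 over 5 bins), and Cntf, a ligand of a related receptor (0.34, from 1 bin). The lower ones were Irf1, an interferon-response factor (-0.54, from 1 bin), and Osm, the ligand oncostatin M (-0.36, SD 0.41 over 3 bins). Genes named next for their role were picked after their values were seen. Lif itself was at -0.17 (SD 0.37 over 5 bins), with highest values of 7.31 at 24 h and 7.75 at 0 h. Of the kinases, Jak1 had no value in any bin and 1 KLF4 peak, Jak2 was at 0.29 and Tyk2 at -0.30. Of the 9 other inhibitors, 6 had a value and 1 was below 0, Pias3 (-0.14). Of the 10 other targets with a value 7 were below 0, as were 2 of the 3 other STAT genes with a value. Of all genes with a value 46.7% were below 0. KLF4 peaks were found at 43 of the 49 genes, beside 53.2% of all protein-coding genes and 74.7% of those with an ESC value. The most were at Tfcp2l1, a naive pluripotency factor downstream of LIF, with 7, and at Socs7 and Mcl1 with 4 each, followed by 11 genes with 3.

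**Figure D4:**
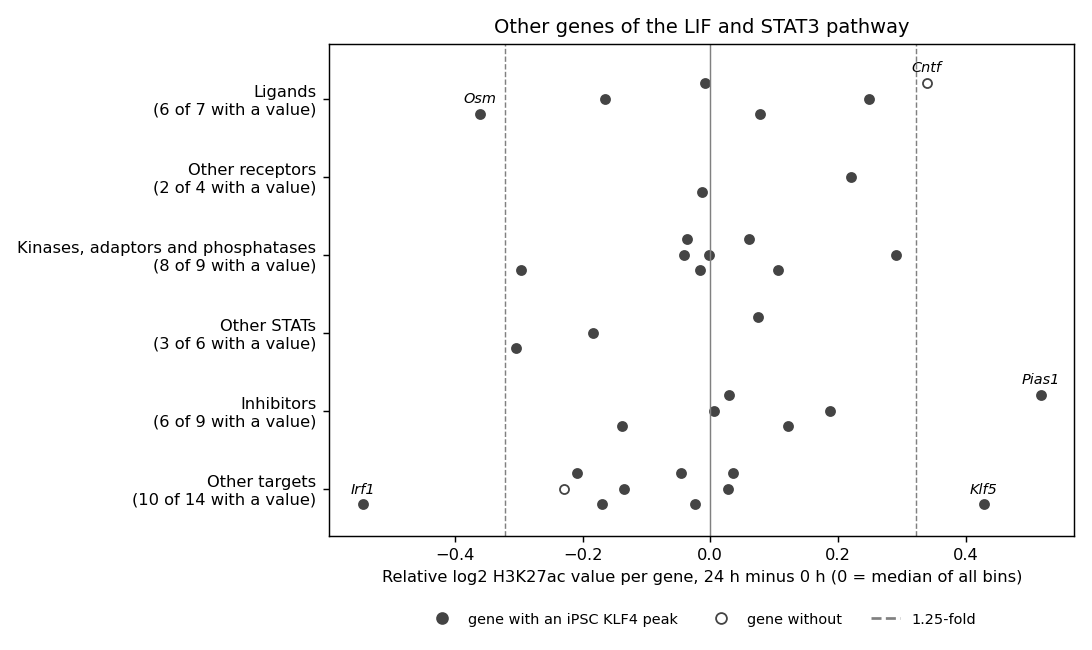
Points are genes of the pathway list by role, at the mean relative log2 H3K27ac value of 24 h over 0 h over their bins, filled where the window holds an iPSC KLF4 peak. The 35 genes with a value lie on either side of 0, and the 5 named genes are those past the dashed lines at 0.32 in either direction.

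In level at each time, score share and numbers of KLF4 and H3K27ac peaks, compared over 7975 genes that had 2 or more bins with values at the 2 times, the gene most like each member was Hexa for Stat3, Sash1 for Socs3, Ntn3 for Fos, Tmod4 for Il6st, Smg6 for Lifr, Clic1 for Pim3, Adrb3 for Pim1, Gys1 for Bcl3 and Cd63 for Junb. The Euclidean distance over these 5 quantities, each divided by its SD and with peak numbers on a log2 scale, was smallest for Il6st and Tmod4 (0.0983). It was largest for Lifr and Smg6 (0.482). These values rest on 2 ESC lists and 2 peak lists.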

How the data were processed

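The authors deposited 4 lists for 12 samples in 7 groups, and each list was assigned to its group from its recorded name. Bowtie2, SAMtools, bedtools and MACS2, with mm10 as the build, are named in the submitters' processing notes without versions or roles, and no source states how replicates were pooled. The deposited ESC lists have no header. Column 4 as deposited by the authors is a whole-number score whose making and meaning are not stated. Column 10 was read as the deposited H3K27ac signal, and its floating-point minimum was taken as no value. Because the authors' scaling of that signal is unknown, values were set against the median bin. The 10 other value columns were not used. The deposited iPSC peaks give start and end positions only, and starts were raised by 1 from BED.

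Windows, relative values, shares and overlaps of 1 bp or more were computed in Python 3.11.15 with pandas 2.3.3, numpy 2.4.6 and scipy 1.17.1, after the statistics were tested on simulated data. A bin entered a gene's mean if it touched the window and had a value at both times. All members were named. Pathway genes were named if past the fold limit or among those with the most KLF4 peaks, and 5 others (Lif, Jak1, Jak2, Tyk2 and Pias3) were picked after their values were seen. Members and lists were chosen with earlier results of these data known. The GGGTG motif was added after GGGNGTGG had matched only 1 member promoter. Flanks, scaling, the summary over bins, peak width and the overlap that counts as shared were varied.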

Additional observations from a re-analysis of the deposited data

How the results depend on the processing

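No paired analysis was possible because each group was deposited as 1 list without values per replicate, and for the same reason no replicate could be left out. The median relative H3K27ac value of the 9 genes (0.08) was -0.048 with 25 kb flanks, -0.025 with the highest bin of each gene, -0.15 without scaling and 0.15 with scaling to summed values. The count past the fold limit as higher was 0 with 25 kb flanks and 0 without scaling, and the count past it as lower was 3 without scaling, in place of 1 and 0. Single genes whose sign differed were Il6st under 3 of 6 alternatives, Stat3 and Socs3 without scaling, and Junb (0.03) with scaling to summed values. Of the pathway genes, in alternatives chosen after seeing the data, 0 were past it as higher and 11 as lower without scaling, and 4 as higher and 1 as lower with scaling to summed values, in place of 3 and 2. Without scaling, 2.54% of all genes with a value were past it as higher and 29.5% as lower. For the bin score, 1 gene was past the fold limit as higher and 1 as lower without flanks, and 1 as higher with bins valued at both times alone. Bins valued at 1 time only numbered 0 at 24 h and 0 at 0 h without flanks, and 3 at 24 h with 25 kb flanks. KLF4 peaks numbered 20 without flanks, 50 with 25 kb flanks and 17 among peaks of at least median width, and H3K27ac peaks 26 without flanks. With 25 kb flanks all 9 genes had a KLF4 peak. The share of KLF4 peaks overlapping H3K27ac ran from 70% to 90.9% over its alternatives, and the score share from 46.3% to 46.7%. Read depth is unknown and bins are 10 kb wide, which limits what can be said of single promoters.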
